A study of Mus musculus with 6 samples.

Results

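The genes that encode mitochondrial ribosomal proteins were followed in laser-captured mesenchyme of the mouse incisor, a tooth that grows throughout life. They were taken as the protein-coding genes whose symbol is Mrpl or Mrps followed by a number and, at most, a letter a to c. This gave 78 of the 23718 genes listed, 51 of the large and 27 of the small ribosomal subunit, and the rule reads names and not values. Mesenchymal stem cell (MSC) samples came from Gli1-CreER;tdT mice and samples of their dividing offspring, the transit amplifying cells (TAC), from Axin2-CreER;tdT mice, with 3 samples in each group. All 6 came from C57BL/6 mice by the labels (a mixed background by the methods), 1 month old, of either sex, in which tamoxifen given 1 day earlier switched on a red reporter. Both groups thus carried a CreER driver and the reporter, and they differ in the driver as well as in the region cut out. The methods give 3 mice per group. The share of reporter-labelled cells in the captured tissue was not measured here.

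Mitochondria keep a small genome of their own. Its messenger RNAs, all for subunits of the respiratory chain and the ATP synthase, are translated inside the organelle by a separate ribosome. The 2 ribosomal RNAs of that ribosome are made in the mitochondrion, whereas its proteins are encoded in the nucleus, made in the cytosol and imported. Some descend from proteins of the bacterial ribosome, and others were added during the evolution of mitochondria. The large subunit forms the peptide bond and releases the new chain at the inner membrane, and the small subunit binds and decodes the message. Members were grouped by these roles into 30 large subunit proteins with a bacterial homolog, 21 large subunit proteins specific to mitochondria, 16 small subunit proteins with a bacterial homolog and 11 small subunit proteins specific to mitochondria. Mrps30 and Mrps18a carry a small subunit name but sit in the large subunit and were counted there. Mrps18a and Mrps18b have a bacterial relative, which they share with Mrps18c, but were counted as specific to mitochondria, and Mrps18c as the homolog. Mrps36 was counted with the small subunit by its name, although its protein is now also described as a part of the oxoglutarate dehydrogenase complex.

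All 78 genes were found in GENCODE release M21 (GRCm38, the build mm10), 68 of them at the position given in the deposited table, spread over 17 chromosomes with 11 on chromosome 11 and 8 on chromosome 17. They were short, with a median of 2394 bases of annotated exon (607 to 8631) against 4629 for the protein-coding genes tested that have a length. An opposite-strand protein-coding gene started within 1000 bases of the start of 33 members (42.3%), against 10.9% of 21951 protein-coding genes. Examples are Mrps12 with Sars2, the mitochondrial seryl-tRNA synthetase (172 bases), Mrpl36 with Ndufs6, a subunit of respiratory complex I (29 bases), and Mrpl49 with Fau, which encodes a cytosolic ribosomal protein (59 bases). Mrps11 and Mrpl46 are transcribed in opposite directions from annotated starts 412 bases apart, and their exons overlap by 173 bases. Annotated exons of 33 members overlapped another gene, and the use of strand in counting was not stated, so reads in such overlaps cannot be assigned.

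RefSeq promoter windows (GRCm38.p6, 250 bases before to 50 after a start) were held for 69 members, in 75 windows. Motifs were searched on both strands. The ETS family motif CCGGAAG, also the core of GABPA sites, was found in 34.7% of member windows, 16.7% of the windows of protein-coding genes tested and 8.86% of all windows. The YY1 motif AAGATGGC was in 16%, 4.22% and 2.75% of these sets. The letters GCATGCGC, which are 1 of the repeated sites of the NRF1 motif with its spacer and not the whole motif, were in 10.7%, 5.06% and 2.71%, and the E-box CACGTG in 9.33%, 9.71% and 7.15%. GABPA and NRF1 are known as regulators of nuclear genes for mitochondrial proteins. Of the 69 members, 40 held at least 1 of the 4 motifs and 29 held none. These are matches of letters and not measured binding. The 250 bases before the start are shown for 3 members with motifs that come back among the highest differences below, Mrpl9, Mrpl32 and Mrps16, and for the facing pair Mrps11 and Mrpl46. Capitals mark a motif. In Mrpl9 and at 1 place in Mrpl32 this partial NRF1 motif is read on both strands and overlaps itself, Mrpl32 holds it at 2 further places and the YY1 motif near its far end, Mrps16 holds the ETS motif, Mrps11 holds the YY1 motif, and Mrpl46 holds none. Mrps16 has 2 annotated windows, and the one not shown, which lies further upstream, holds none of the 4 motifs.
Mrpl9, chr3:94443086-94443335, plus strand: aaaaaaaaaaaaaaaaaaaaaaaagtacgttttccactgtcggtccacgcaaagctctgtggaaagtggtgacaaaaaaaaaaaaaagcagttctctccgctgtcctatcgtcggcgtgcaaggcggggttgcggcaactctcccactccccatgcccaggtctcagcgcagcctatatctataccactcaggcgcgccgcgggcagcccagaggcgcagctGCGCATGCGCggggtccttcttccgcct
Mrpl32, chr13:14613038-14613287, minus strand: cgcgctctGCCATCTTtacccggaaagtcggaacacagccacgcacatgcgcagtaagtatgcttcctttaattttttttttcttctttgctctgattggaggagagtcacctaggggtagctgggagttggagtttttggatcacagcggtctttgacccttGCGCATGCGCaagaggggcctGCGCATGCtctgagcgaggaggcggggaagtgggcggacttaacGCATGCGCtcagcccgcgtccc
Mrps16, chr14:20393491-20393740, minus strand: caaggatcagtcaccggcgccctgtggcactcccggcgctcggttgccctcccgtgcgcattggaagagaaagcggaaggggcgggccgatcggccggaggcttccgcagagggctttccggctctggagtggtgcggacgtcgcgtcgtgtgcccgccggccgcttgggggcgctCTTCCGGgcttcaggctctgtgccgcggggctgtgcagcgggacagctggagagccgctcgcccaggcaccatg
Mrps11, chr7:78782881-78783130, plus strand: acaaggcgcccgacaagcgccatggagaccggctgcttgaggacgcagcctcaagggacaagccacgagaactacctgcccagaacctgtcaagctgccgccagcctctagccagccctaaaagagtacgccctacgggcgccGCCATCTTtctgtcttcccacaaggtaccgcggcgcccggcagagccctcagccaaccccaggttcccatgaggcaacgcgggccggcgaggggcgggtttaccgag
Mrpl46, chr7:78783090-78783339, minus strand: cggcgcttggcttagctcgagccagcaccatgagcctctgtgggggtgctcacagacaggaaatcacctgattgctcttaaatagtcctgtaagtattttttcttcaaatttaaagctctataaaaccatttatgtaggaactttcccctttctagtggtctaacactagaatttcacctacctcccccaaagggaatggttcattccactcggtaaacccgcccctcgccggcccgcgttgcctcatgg

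The values are normalized read counts as deposited, an estimated read number plus 1 divided by a size factor of the library, and gene length is not divided out. Libraries held 20203159 to 25567244 estimated reads in replicates 1 and 2 of both groups, 59793645 in MSC replicate 3 and 108156380 in TAC replicate 3. Replicate 3 also stood apart in content. The mitochondrial ribosomal RNA mt-Rnr2 lay between 34186 and 39421 in replicates 1 and 2 and at 517 and 240 in MSC and TAC replicate 3, and of the 15391 genes tested 21.03% had no read in MSC replicate 3, 9.32% in TAC replicate 3 and 0.481% to 0.650% in the others. Results are therefore given for all 6 samples, for replicates 1 and 2, and for replicate 3, where each group is a single library and nothing could be tested. Cycling markers were higher in TAC in 5 of 5 genes at an unadjusted p under 0.05, with summed values of 86.2 to 192 in MSC and 262 to 928 in TAC. Perivascular markers were lower in 4 of 4, with sums of 671 to 1339 in MSC and 59.8 to 75.1 in TAC. Of other lists, 7 of 7 dental epithelium markers were higher in TAC in value over all 6 samples and 1 passed the unadjusted threshold. In replicates 1 and 2 only 5 of 7 were higher. Their sums were 3595 to 3657 in MSC replicates 1 and 2, 300 in MSC replicate 3, 3264 to 3337 in TAC replicates 1 and 2 and 2144 in TAC replicate 3. Odontoblast markers were higher in value in 4 of 4 over all 6 samples with none passing, and in 2 of 4 in replicates 1 and 2. Their sums were 5027 to 5173, 763, 4655 to 4685 and 4405 in the same order. The TAC sums of the 2 lists were thus 0.91 and 0.92 times the MSC sums in replicates 1 and 2, but 7.15 and 5.77 times in replicate 3. In the direction of MSC, 2 of 5 incisor mesenchyme markers passed (sums of 598 to 789 in MSC, 422 to 681 in TAC), 2 of 5 endothelial markers (129 to 195, 62.8 to 84.1), 1 of 5 immune markers (62.5 to 150, 32.6 to 74.0), 1 of 3 glial markers (15.4 to 29.6, 4.51 to 14.8) and 0 of 3 red cell markers (25.02 to 31.5, 27.1 to 30.4). By comparison, 5.42% of genes tested passed in the direction of TAC and 6.43% in that of MSC. Some markers of these lists were higher in TAC in value. They were Msx1 and Fgf10 of the incisor mesenchyme (log2 TAC minus MSC 0.70 and 0.24), Kdr of the endothelium (0.0015), Adgre1 of the immune list (0.49) and 2 of 3 red cell markers. The TAC values of Msx1 (136 to 150) all lay above its MSC values (52.8 to 114). Dmp1, Epcam, Cdh1, Adgre1 and Alas2 had no read in MSC replicate 3, and Alas2 and Sox10 had none in TAC replicate 3. Gli1 and Axin2, whose drivers define the groups, passed no threshold in the fit of all 6 samples (limma adjusted p 0.718 and 0.758). With the replicate block Gli1 was lower in TAC at an unadjusted limma p of 0.0320 (adjusted p 0.203). The skeletal muscle genes Myh4 and Ckm were not among the listed genes and the other 3 were too low to test. The part of these cells in the results below was not tested, and fewer cells of a type and less RNA per cell cannot be told apart in such samples.

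All 78 members had a mean value of at least 1 and were tested. Each had a low or moderate level, with a median member at 5.59 and 5.68 in MSC replicates 1 and 2, 5.99 in MSC replicate 3, 8.72 and 9.17 in TAC replicates 1 and 2, and 12.7 in TAC replicate 3. Summed over the 78, the MSC replicates 1, 2 and 3 reached 576, 573 and 832, and the TAC replicates 806, 813 and 1196. Each TAC sum was thus above the MSC sum of the same number, by 1.40, 1.42 and 1.44 times, while TAC replicates 1 and 2 lay just below MSC replicate 3. As a share of the values of protein-coding genes the members took 0.143%, 0.143% and 0.230% in MSC and 0.198%, 0.198% and 0.313% in TAC.

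**Figure D1:**
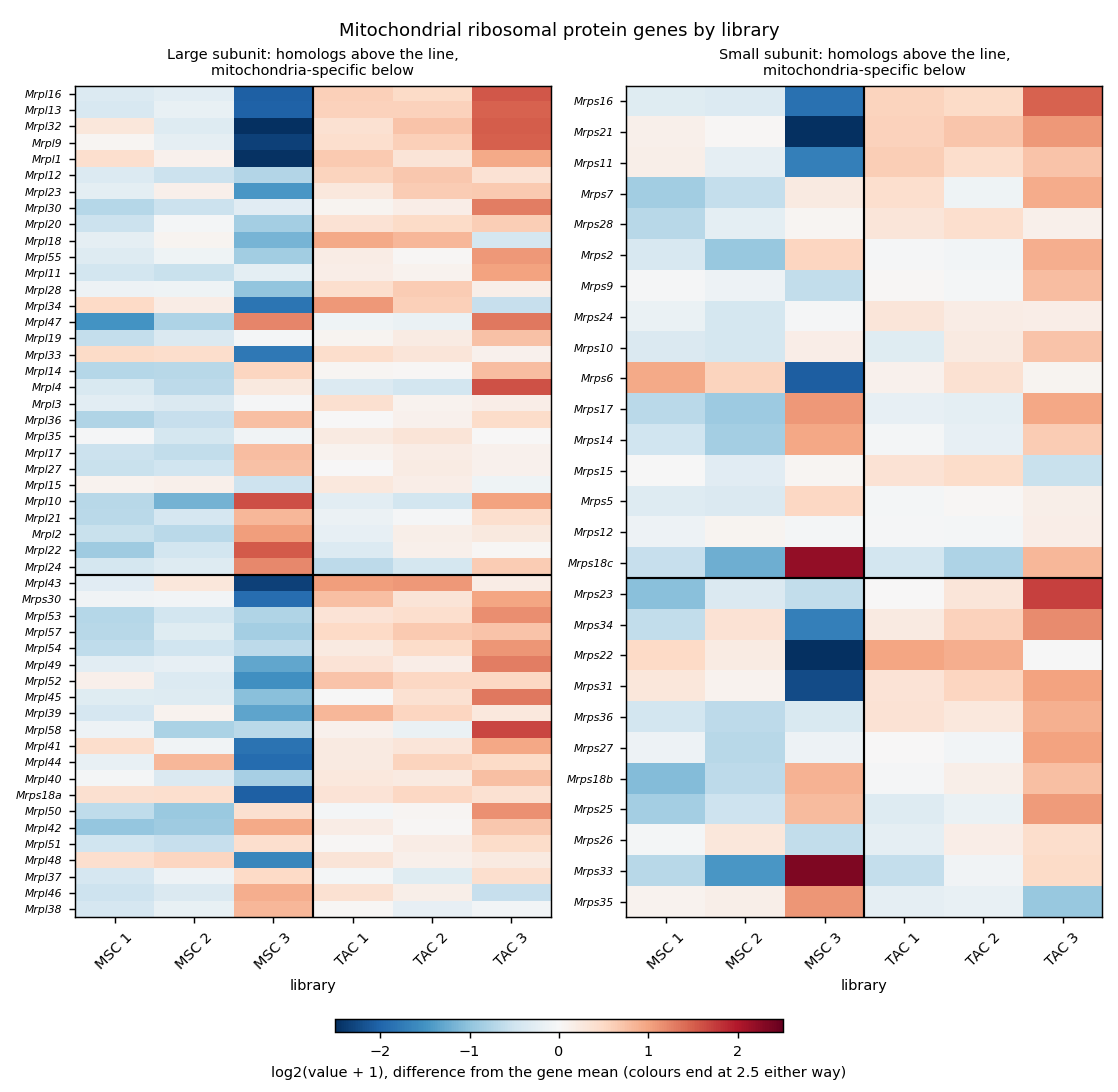
Level of each of the 78 members (rows) in each library (columns), as log2(value + 1) minus the mean of that gene over the 6 libraries; blue is below and red above the gene mean, and members are ordered within a class by their difference between groups. TAC columns are mostly red, and MSC replicate 3 holds both the darkest blue cells (among them members without a read there) and the darkest red ones (Mrps33 and Mrps18c).

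The difference between groups was taken per gene as TAC minus MSC on the log2(value + 1) scale, on which changes of low genes are understated. Its median over the 78 members was 0.68, against 0.03 over all genes tested, and it was above 0 for 71 of 78 members, against 51.5% of all genes tested. Such genes are called higher in TAC in value here, whether or not a test was passed. By the group means of the values themselves 68 members were higher in TAC, against 48.5% of all genes tested, since Mrpl2, Mrpl10 and Mrps6 had the lower mean in TAC. In replicates 1 and 2 the median was 0.56 with 71 members positive, and in replicate 3 it was 1.13 with 58 positive. Of the 15391 genes tested, 7183 and 8042 were positive in these sets. Both library sets were positive for 53 members, where 30.1% of all genes tested were so. Both were negative for 2, Mrps35 and Mrpl24, where 4796 of the 15391 genes tested were so. The 3 TAC values all lay above the 3 MSC values for 32 members, against 12.3% of all genes tested, and all below them for 1, Mrps35, against 12.2%. Separation in either direction is more frequent among all genes with fewer samples. It held for 37 and 36 members without MSC replicate 1 or 2 (28.8% of genes tested in each case), for 35 and 37 without TAC replicate 1 or 2 (27.5% and 27.4%), for 40 without TAC replicate 3 (42.9%) and for 57 without MSC replicate 3 (49.9%), beside 33 in all samples (24.5%).

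No member passed the adjusted threshold of 0.05 in limma, which 0.422% of the genes tested did, and the lowest adjusted p of a member was 0.262. At an unadjusted p under 0.05, 8 members were higher in TAC, where 5.42% of genes tested were, and 0 were lower, where 6.43% were. These were Mrpl12, Mrpl13, Mrpl16, Mrpl52, Mrpl53, Mrpl54, Mrpl57 and Mrps16. Leaving out TAC replicate 1 or TAC replicate 2 left 0 members, where 2.61% and 2.64% of genes tested passed in this direction. Without TAC replicate 3 there were 3, where 5.65% of genes tested passed, and without MSC replicate 3 there were 19, where 8.63% did. Without MSC replicate 1 or MSC replicate 2 there were 8 and 7, where 4.31% and 4.37% did. With the replicate block, which compares same-numbered samples, 12 members were higher at an unadjusted p under 0.05, where 9.43% of genes tested were, and 0 were lower. Of the 8, 6 passed with the block too, while Mrpl16 (limma p 0.0574) and Mrps16 (p 0.0525) did not.

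Within replicates 1 and 2, 40 members passed the adjusted threshold in the direction of TAC, where 20.0% of genes tested did, and 0 in the direction of MSC, where 24.2% did. Both TAC values lay above both MSC values for 60 members, against 33.4% of genes tested, and below them for 5, against 39.5% (65 and 72.9% in either direction). The error in this fit is the spread between libraries that were alike. With library set as a term in the fit of all 6 samples, 1 member passed in the direction of TAC, where 5.22% of genes tested did. That member was Mrpl12.

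**Figure D2:**
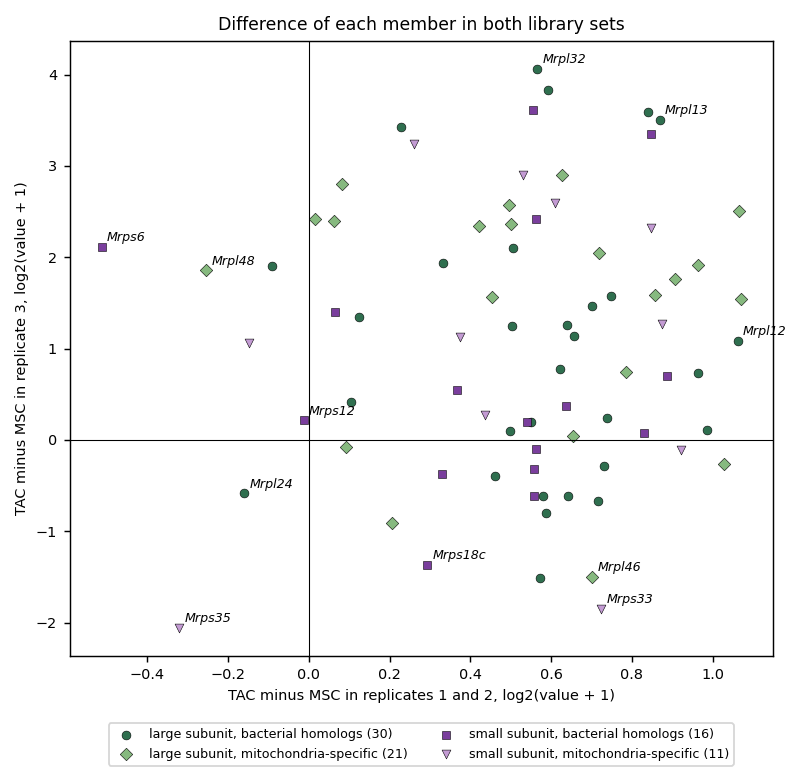
TAC minus MSC of each of the 78 members in replicates 1 and 2 (x axis, mean of 2 against mean of 2) and in replicate 3 (y axis, 1 library against 1), both on the log2(value + 1) scale; colours and symbols give the 4 classes. Values span -0.51 to 1.07 on the x axis and -2.05 to 4.07 on the y axis, and 53 members lie to the right of and above 0.

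The large subunit had the higher median, 0.82 over 51 genes against 0.51 over the 27 of the small subunit. In replicates 1 and 2 the medians were 0.59 and 0.56, and in replicate 3 they were 1.35 and 0.55. Of the 8 members past the unadjusted threshold, 7 were among the 51 genes of the large subunit and 1 among the 27 of the small one, where 5.42% of genes tested passed. All TAC values lay above all MSC values for 23 of the 51 and 9 of the 27, where 12.3% of genes tested did so. The summed value of the large subunit was 365, 367 and 483 for MSC against 539, 530 and 771 for TAC, so that its groups did not overlap. That of the small subunit was 210, 206 and 349 in MSC and 266, 283 and 425 in TAC, where MSC replicate 3 lay above TAC replicates 1 and 2. The small subunit accordingly made up 36.6%, 36.0% and 42.0% of the summed member value in MSC and 33.1%, 34.8% and 35.5% in TAC. The difference between the subunits was not tested.

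**Figure D3:**
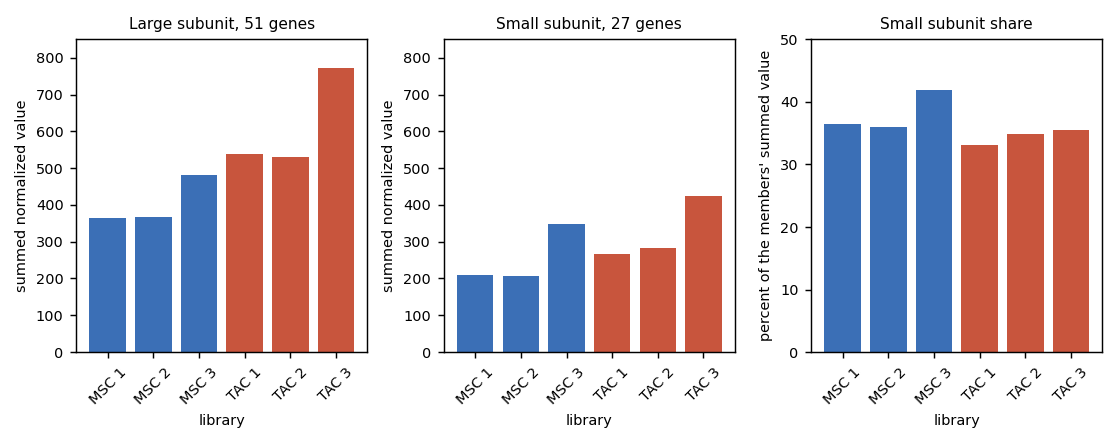
Summed normalized value of the large subunit genes (left) and the small subunit genes (middle), and the small subunit's percent of the summed value of all 78 members (right), in each library; blue bars are MSC and red bars TAC, 1 library each, with no error bars. Large subunit sums are 365 to 483 in MSC and 530 to 771 in TAC, and the small subunit share is 36.0% to 42.0% in MSC and 33.1% to 35.5% in TAC.

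Among the 30 large subunit proteins with a bacterial homolog the median difference was 0.68 (-0.30 to 1.76), and 28 were higher in TAC in value. Mrpl12 (chromosome 11, 120484613 to 120489065, plus strand) forms the flexible stalk that recruits translation factors, and its protein has also been described to bind the mitochondrial RNA polymerase. Its MSC values were 10.6, 9.24 and 7.97 and its TAC values 20.9, 22.7 and 18.1, each in the order of replicates 1, 2 and 3, as in all such sentences below. The groups did not overlap, and replicate 3 lay close to replicates 1 and 2 in both. The MSC mean was 9.28 ± 1.33 and the TAC mean 20.6 ± 2.31 (SD, n = 3), 2.21 times as high, and the log2 difference was 1.07 (SE 0.33; limma p 0.0133, adjusted p 0.262). Replicates 1 and 2 gave 1.06, and replicate 3 gave 1.09. With library set as a term its adjusted p in limma was 0.0234, and over the alternatives run it ranged from 0.000422 to 0.784. Its exons overlap those of the predicted gene Gm16755 by 200 bases.

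Mrpl13 (chromosome 15, 55534094 to 55557748, minus strand) had the second largest difference. Its product is a core protein of the large subunit, and its MSC values were 5.32, 6.32 and 1.05 and its TAC values 11.4, 11.4 and 22.2. The groups did not overlap, and replicate 3 was the lowest MSC sample and the highest TAC sample. The log2 difference was 1.75 (SE 0.62; limma p 0.0255, adjusted p 0.335), made up of 0.87 in replicates 1 and 2 and 3.51 in replicate 3. Exons of Mrpl13 overlap those of Mtbp, a gene on the opposite strand, by 330 bases, and Mtbp differed by 0.76 (replicates 1 and 2) and 2.25 (replicate 3).

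Mrpl16 (chromosome 19, 11770391 to 11774960, plus strand), whose protein lies near the site of peptide bond formation, had values of 2.27, 2.46 and 0.0133 in MSC and 5.28, 4.77 and 11.2 in TAC. The value of MSC replicate 3 stands for 1 read. Its log2 difference was 1.76 (SE 0.68; limma p 0.0352, adjusted p 0.373), with 0.84 in replicates 1 and 2. The groups did not overlap, and its exons overlap no other gene.

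Mrpl32, whose protein is cut by an inner membrane protease before it enters the ribosome, was 6.24, 3.74 and 0.00666 in MSC and 6.72, 8.73 and 15.9 in TAC. MSC replicate 3 had no read of it, which allows a value of up to 0.0266 (3 reads). Its difference of 0.57 in replicates 1 and 2 was small beside the 4.07 of replicate 3, and the pooled value was 1.73 (SE 0.81; limma adjusted p 0.467). Psma2, a proteasome subunit gene whose start lies 75 bases from that of Mrpl32, differed by 1.12 within replicates 1 and 2 but by -1.54 within replicate 3.

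Mrpl9, whose promoter holds the partial NRF1 motif, was 6.81, 5.45 and 0.493 in MSC and 9.04, 10.4 and 20.2 in TAC. Replicates 1 and 2 differed by 0.59, replicate 3 by 3.83 (pooled 1.67, SE 0.73; limma adjusted p 0.437). Mrpl23 belongs to the rim of the tunnel through which the new chain leaves. It was 5.63, 7.59 and 1.87 in MSC and 8.46, 11.1 and 11.3 in TAC, again without overlap (log2 difference 1.04, SE 0.54; limma adjusted p 0.518).

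At the other end stood Mrpl24, with 19.2, 20.6 and 61.9 in MSC and 16.4, 19.1 and 41.1 in TAC. Its groups overlapped, and replicate 3 was the highest sample in each. Its log2 difference of -0.30 (SE 0.55; limma adjusted p 0.896) turned to 0.23 without MSC replicate 3. Exons of Mrpl24 overlap those of Rrnad1 by 594 bases. Mrpl10, a stalk base protein, was likewise highest in replicate 3, with 8.31, 5.64 and 45.3 in MSC and 11.5, 10.04 and 29.4 in TAC. Its difference was 0.58 within replicates 1 and 2, against -0.61 within replicate 3. Mrpl1, which binds at the opposite stalk, was 6.502, 5.01 and 0.00666 in MSC and 7.84, 5.99 and 9.85 in TAC, with a difference of 0.23 in replicates 1 and 2 and no read in MSC replicate 3.

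The 21 large subunit proteins specific to mitochondria had the highest median of the 4 classes, 0.99 (-0.16 to 1.55), with 19 higher in TAC in value. Mrpl52, Mrpl53, Mrpl54 and Mrpl57 passed the unadjusted threshold. Mrpl52 was 23.0, 16.5 and 6.68 in MSC and 35.0, 30.5 and 30.8 in TAC, a log2 difference of 1.16 (SE 0.46; limma p 0.0369, adjusted p 0.379). Mrpl54 was 3.68, 4.202 and 3.65 in MSC and 7.53, 9.02 and 14.7 in TAC. The MSC mean was 3.84 ± 0.312 (SD, n = 3), and the groups did not overlap (log2 difference 1.19, SE 0.46; limma p 0.0343, adjusted p 0.370). Mrpl57 was 2.505, 3.62 and 2.17 in MSC and 7.01, 7.91 and 8.26 in TAC, with the groups well apart (log2 difference 1.23, SE 0.46; limma p 0.0312, adjusted p 0.353). Mrpl53 was 1.28, 1.72 and 1.21 in MSC and 3.69, 4.02 and 7.31 in TAC, but 78.8% of its 75-base words also occur in transcripts of another annotated gene on top of it, so its reads are uncertain.

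Mrps30, a member of the large subunit in spite of its name, was 7.76, 7.90 and 1.498 in MSC and 14.8, 10.8 and 17.7 in TAC. The groups did not overlap, and the log2 difference was 1.38 (SE 0.60; limma p 0.0541, adjusted p 0.432). Exons of Mrps30 overlap those of B430218F22Rik by 623 bases. Mrpl45 is thought to hold the ribosome to the inner membrane. It was 4.08, 3.999 and 2.04 in MSC and 5.23, 7.14 and 14.6 in TAC, without overlap (log2 difference 1.12, SE 0.55; limma adjusted p 0.488). Mrpl58, a peptidyl-tRNA hydrolase that frees chains from stalled ribosomes, was 11.5, 6.95 and 7.55 in MSC and 13.7, 11.1 and 42.2 in TAC. TAC replicate 2 lay below MSC replicate 1, so its groups overlapped (log2 difference 1.06, SE 0.55; limma adjusted p 0.513). Mrpl38 was 12.2, 14.5 and 30.3 in MSC and 16.9, 14.1 and 15.8 in TAC. Its difference was 0.21 in replicates 1 and 2 and -0.90 in replicate 3, with a pooled value of -0.16 (SE 0.41; limma adjusted p 0.931).

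**Figure D4:**
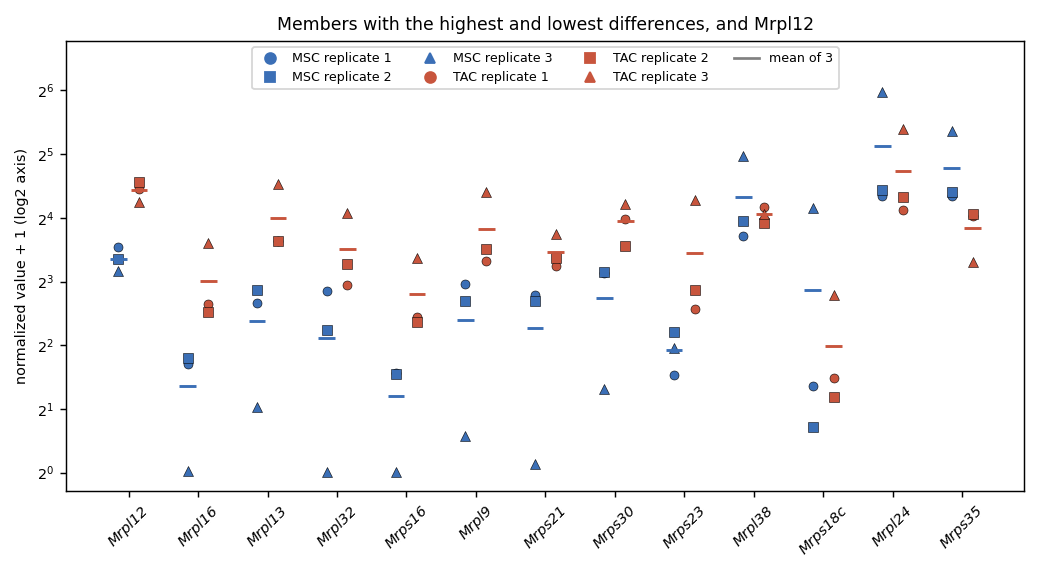
Normalized value plus 1 on a log2 axis for Mrpl12 and for the 8 members with the largest positive difference among those without overlap and the 4 with the most negative difference; symbols are single libraries (circle, square and triangle for replicates 1, 2 and 3; blue MSC, red TAC) and bars are means of 3. Mrpl12 is the member shown whose replicate 3 lies near replicates 1 and 2 in both groups; in Mrpl16, Mrpl32 and Mrps16 MSC replicate 3 sits at or next to the bottom of the scale.

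In the small subunit, the 16 proteins with a bacterial homolog had a median difference of 0.43 (-0.26 to 1.68), and 15 were higher in TAC in value. Mrps16 was 1.97, 1.91 and 0.00666 in MSC and 4.42, 4.17 and 9.29 in TAC. Without the replicate block it was the small subunit member past the unadjusted threshold (log2 difference 1.68, SE 0.65; limma p 0.0346, adjusted p 0.371), with 0.85 in replicates 1 and 2 and no read in MSC replicate 3. Mrps21 was 5.94, 5.51 and 0.102 in MSC and 8.45, 9.33 and 12.5 in TAC. Replicates 1 and 2 gave 0.56 and replicate 3 gave 3.61, and the pooled log2 difference was 1.57 (SE 0.78; limma adjusted p 0.493). Mrps12, the decoding protein in which bacterial streptomycin resistance arises, was nearly level. It was 5.09, 5.97 and 5.45 in MSC and 5.47, 5.44 and 6.48 in TAC, with means of 5.50 ± 0.442 and 5.80 ± 0.590 (SD, n = 3). Its log2 difference was 0.06 (SE 0.43; limma adjusted p 0.978).

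Mrps18a, Mrps18b and Mrps18c are relatives of 1 bacterial protein that occupy different places in the ribosome, and they did not run together. Mrps18a was 18.1, 18.2 and 2.48 in MSC and 17.3, 19.5 and 17.6 in TAC, so that only MSC replicate 3 departed from the rest. Mrps18b was 2.45, 3.67 and 12.3 in MSC and 6.18, 7.05 and 11.4 in TAC. It was higher in TAC by 0.92 in replicates 1 and 2 and differed by -0.11 in replicate 3. Mrps18c was 1.57, 0.649 and 16.7 in MSC and 1.81, 1.27 and 5.89 in TAC, with replicate 3 the highest sample of each group. The pooled log2 differences of the 3 were 0.82 (SE 0.69), 0.58 (SE 0.63) and -0.26 (SE 0.98), with limma adjusted p-values of 0.704, 0.784 and 0.960. That of Mrps18c was 0.29 in replicates 1 and 2 only.

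The 11 small subunit proteins specific to mitochondria had a median of 0.63 (-0.90 to 1.34), and 9 were higher in TAC in value. Mrps23 was 1.89, 3.62 and 2.90 in MSC and 4.95, 6.28 and 18.5 in TAC. The groups did not overlap (log2 difference 1.34, SE 0.61; limma p 0.0613, adjusted p 0.447). With the replicate block Mrps23 (limma p 0.0417, adjusted p 0.227) and Mrps36 (p 0.0431, adjusted p 0.231), named for this result, were the small subunit members past the unadjusted threshold. Mrps35 (chromosome 6, 147042764 to 147073991, plus strand) was the member whose TAC values all lay below its MSC values. It was 19.2, 20.2 and 40.2 in MSC and 15.4, 15.8 and 8.92 in TAC, a mean of 26.5 ± 11.8 against 13.4 ± 3.85 (SD, n = 3). Its log2 difference was -0.90 (SE 0.42; limma p 0.0671, adjusted p 0.462), made up of -0.32 in replicates 1 and 2 and -2.05 in replicate 3. Its exons overlap no other gene and it shares no 75-base word with another.

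MSC replicate 3 differed from the other libraries across members. It had no read in 9 of them, Mrpl1, Mrpl32, Mrpl34, Mrpl41, Mrpl43, Mrpl44, Mrps16, Mrps22 and Mrps31, while no member was without a read in any other library. The 9 made up 11.5% of members, where 14.1% of protein-coding genes tested and 21.03% of all genes tested had no read in MSC replicate 3. Its log2 values had an SD of 1.70 over the 78 members, against 0.74 to 0.92 in the other 5. Across the 78 members, which are not independent samples, the log2 values had a Pearson correlation of 0.91 between MSC replicates 1 and 2 and 0.95 between TAC replicates 1 and 2. MSC replicate 3 correlated at 0.38 to 0.44 with replicates 1 and 2 of either group and at 0.50 with TAC replicate 3. In replicate 3, 58 members were higher and 20 lower in TAC in value, where 8042 of the 15391 genes tested were higher. Mrps33, named here for its values, was 2.41, 1.01 and 26.6 in MSC and 2.61, 4.17 and 6.66 in TAC, so that its replicate 3 difference was -1.85 and that in replicates 1 and 2 was 0.72. Opposite directions in the library sets occurred in 29.5% of members and 38.8% of all genes tested.

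The facing pair Mrps11 and Mrpl46, also named for their values, shows this within 1 start region. In replicates 1 and 2 they differed alike, by 0.56 and 0.70. In replicate 3 Mrps11 went from 0.393 in MSC to 6.46 in TAC, whereas Mrpl46 went from 8.51 to 2.37, differences of 2.42 and -1.50. Of the 28 opposite-strand neighbours of members that were tested and are not members, 22 were higher in TAC in value, with a median of 0.43. Members with such a neighbour had a median of 0.77 and the 45 without one of 0.60. Among the 45 members whose exons overlap no other gene the median was 0.82, and 41 were higher in TAC in value.

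Levels can be compared between genes only per length of exon. Per 1000 bases of annotated exon the mean value over the 6 samples had a median of 3.45 over the members, against 3.15 over the protein-coding genes tested that have a length, 9.26 for nuclear genes of oxidative phosphorylation and 114 for cytosolic ribosomal proteins. Mrpl52 (21.4), Mrpl24 (13.2) and Mrpl10 (10.8) were highest per length among members and Mrpl13 (1.21), Mrps16 (1.26) and Mrpl1 (1.37) lowest. The order differed between the library sets. In replicates 1 and 2 alone Mrpl52 (23.7), Mrpl12 (10.4) and Mrps21 (9.89) were highest, above Mrpl24 (8.35) and Mrpl10 (5.20), which reached 22.8 and 21.9 in replicate 3. Mrps16 and Mrpl13 were among the 3 lowest there too, at 1.09 each.

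The other genes of mitochondrial translation were taken from lists of 63 genes. No gene of these lists passed the unadjusted threshold in either direction in the fit of all 6 samples, where 11.9% of genes tested did. With the replicate block 4 did, 2 in each direction, where 9.43% of genes tested were higher and 10.9% lower in TAC. The 5 ribosomal subunits outside the name rule, Dap3, Ptcd3, Aurkaip1, Chchd1 and Gadd45gip1, had a median difference of 0.57, and 4 of 5 were higher in TAC in value. Ptcd3 was 16.3, 17.6 and 30.9 in MSC and 24.1, 22.3 and 46.7 in TAC. Dap3, a small subunit protein that binds GTP, was 27.5, 26.6 and 30.6 in MSC and 21.9, 21.5 and 38.6 in TAC, so that TAC was the lower group in replicates 1 and 2 and the higher one in replicate 3.

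The 14 translation factors had a median of 0.08 (0.18 in replicates 1 and 2, -0.33 in replicate 3), with 7 higher in TAC in value. Tufm, the elongation factor that brings aminoacyl-tRNA to the ribosome, was 11.03, 12.4 and 0.352 in MSC and 19.9, 21.9 and 7.55 in TAC. The 20 genes for mitochondrial aminoacyl-tRNA synthetases and the related amidotransferase had a median of 0.50 in all samples, 0.09 in replicates 1 and 2 and 1.24 in replicate 3, and 7 of them had no read in MSC replicate 3. Lars2, the leucyl-tRNA synthetase, held most of their summed value, at 982, 1143 and 1056 in MSC and 923, 1007 and 265 in TAC. The 24 genes of ribosome assembly and ribosomal RNA modification had a median of 0.21 (-0.03 in replicates 1 and 2), and the 8 of mitochondrial transcription and replication one of -0.11 (0.21 in replicates 1 and 2, -0.65 in replicate 3).

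The messenger RNAs that this ribosome translates were all 13 higher in TAC in value in replicates 1 and 2, with a median of 0.28, and 11 were in replicate 3, with a median of 0.40. None passed the unadjusted threshold in the fit of all 6 samples, and 7 did with the replicate block. Their summed value was 4068, 3917 and 16104 in MSC and 5002, 4961 and 22530 in TAC, so that replicate 3 differed from replicates 1 and 2 by more than the groups did. The ribosomal RNA mt-Rnr1 was 13541, 13292 and 421 in MSC and 12900, 12785 and 220 in TAC, and mt-Rnr2 was 39421, 38541 and 517 in MSC and 34971, 34186 and 240 in TAC, each lower in TAC in value in every numbered pair. Neither passed a threshold (limma adjusted p 0.976 and 0.974).

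The 2 larger nuclear gene sets here give a scale for these values. The 82 cytosolic ribosomal protein genes tested had a median of 0.91, with 82 higher in TAC in value, 35 past the unadjusted threshold in that direction and 0 in the other. The 76 nuclear genes of oxidative phosphorylation had a median of 0.60, with 72 higher in value (65 by the group means), 10 past the unadjusted threshold and 0 in the other direction. With the replicate block, 78 of the cytosolic ribosomal protein genes were higher and 0 lower at the unadjusted threshold, and 35 passed the adjusted one. Of the oxidative phosphorylation genes, 22 were then higher and 1 lower, and 2 passed the adjusted threshold. With the block 10.9% of genes tested were lower at the unadjusted threshold and 1.49% passed the adjusted one. The medians of the 2 sets in replicates 1 and 2 were 0.94 and 0.57 and in replicate 3 were 0.87 and 0.56, beside 0.56 and 1.13 for the members. Cytosolic ribosomal protein genes have many near-identical copies in the genome, so their counts are uncertain. Whether the members differ from either set was not tested.

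**Figure D5:**
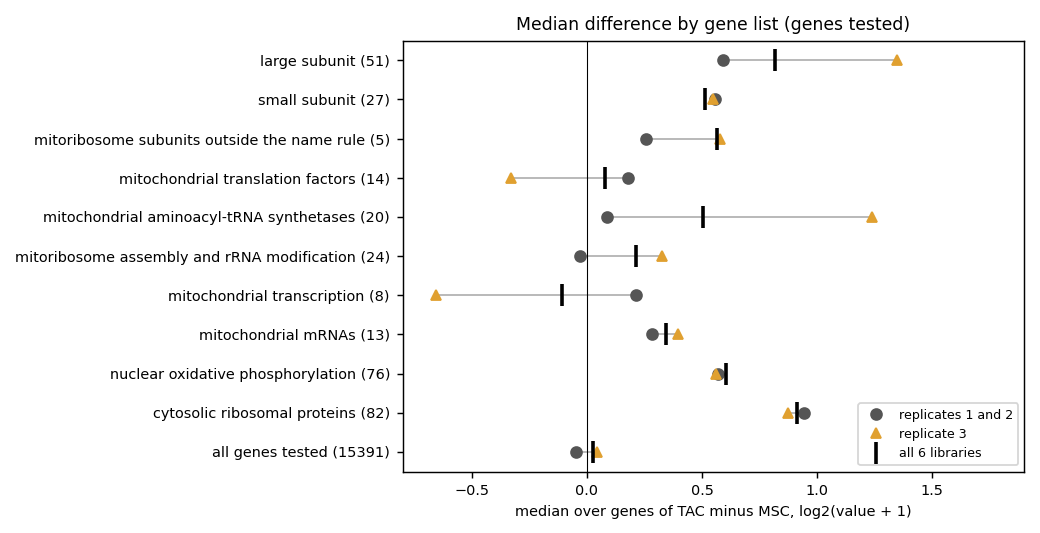
Median over the genes of each list of TAC minus MSC on the log2(value + 1) scale, in replicates 1 and 2 (circles), in replicate 3 (triangles) and in all 6 libraries (bars), with the number of genes tested in brackets. Both subunits lie at 0.56 to 0.59 in replicates 1 and 2, translation factors and the lists for assembly, synthetases and transcription lie between -0.03 and 0.21 there, and all genes tested lie near 0.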

How the data were processed

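Samples were grouped by the labels into 3 MSC and 3 TAC libraries. The authors sequenced single-end reads of 75 bases, aligned them to mm10 with TopHat 2.0.8 and describe an RPKM normalization. The processing notes of the submitters also name CASAVA 1.8.2 and Partek. The deposited values behaved as another unit, a signal equal to the estimated read number plus 1 over a size factor per library, since in each library most low values (72.4% to 93.2% of those under 200 reads, within 0.01 of a read) were whole multiples of the lowest one. As part of the reads came out fractional, count models were not run. The counting tool was not given in the sources used here. The test was planned on a log scale because the values are labelled as normalized counts, and it was kept for this unit.

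Values were taken as log2(value + 1) for the 15391 genes whose mean value reached 1 and tested with limma 3.58.1 (empirical Bayes with trend, two-sided, TAC minus MSC), with Benjamini-Hochberg adjustment over all of them and 0.05 as the threshold. Sensitivity to single libraries, scaling, filter, pseudocount and variance model was examined in 17 alternatives and 1, members without an exon overlap, chosen after seeing the data. The members are defined by name alone, but this gene family and the lists were chosen for study with earlier results of these data known. Members named with values were those past the adjusted threshold (none), the 8 highest differences without overlap, the 4 lowest of all (as only 1 lacked overlap), 9 chosen for their role, and the 3 highest and 3 lowest per exon length; others past the unadjusted threshold were added.

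Deviations from the group means of samples 1, 2 and 3 correlated between groups at 0.48, 0.47 and 0.52 across genes, so the numbers pair the samples by the condition used. MSC replicate 1 with TAC replicate 2 gave 0.46, so the shared part is that of replicate 3 against the others. Replicates 1 and 2 differed by more than counting noise (mean chi-square of 10.3 per gene in MSC and 8.39 in TAC, where 1 is given by counting alone). Floors of 3 reads cover counting error only. The labels do not say which mouse a library came from, so p-values measure the spread between these samples.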

Additional observations from a re-analysis of the deposited data

How the results depend on the processing

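The median difference of the members stayed positive under every alternative run, between 0.49 and 0.88, and within the spread of the 3 numbered pairs (SD 0.33 around the pair medians 0.51, 0.64 and 1.13). The counts depended on the libraries used. Members past the adjusted threshold numbered 0 in the main analysis, 40 with replicates 1 and 2 only, 1 with library set as a term and 0 under all other alternatives. Members past the unadjusted threshold numbered 8 (5.42% of all genes tested passed in the direction of TAC), and 24 with library set as a term (14.2%), 5 with a mean of at least 5 (6.74%), 3 with no filter on low values (3.58%), 5 with a pseudocount of 0.1 (4.48%), 13 after quantile normalization (6.73%), 47 with replicates 1 and 2 only (51.9% in either direction), 5 among the 45 members without an exon overlap, and 0 to 19 when 1 sample was left out (0 without TAC replicate 1 or TAC replicate 2, 3 without TAC replicate 3, 19 without MSC replicate 3). Members without overlap between groups, in either direction, numbered 33 (24.5% of all genes tested had none), 65 with replicates 1 and 2 only (72.9%), and 35 to 57 when 1 sample was left out (27.4% to 49.9%; 57 and 49.9% without MSC replicate 3). Of all genes tested, 65 passed the adjusted threshold, and 1814 with library set as a term, 29 without the variance trend, 38 with a pseudocount of 0.1, 6796 with replicates 1 and 2 only, and 0 to 292 when 1 sample was left out (0 without replicate 1 or replicate 2 of either group, 36 without TAC replicate 3, 292 without MSC replicate 3). At the unadjusted threshold 1824 passed, and 4554, 7983 and 1028 to 3108 under the library set term, replicates 1 and 2 only and the leaving out of 1 sample (1036 without TAC replicate 1, 1028 without TAC replicate 2, 3108 without MSC replicate 3). Translation partners past the unadjusted threshold in either direction numbered 0 (11.9% of all genes tested passed), and 8 with library set as a term (29.6%), 1 with a mean of at least 5 (14.2%) and 1 with no filter (7.79%). They numbered 1 without the variance trend (11.7%), 1 with a pseudocount of 0.1 (10.6%), 2 after quantile normalization (13.3%), 16 with replicates 1 and 2 only (51.9%), and 0 to 2 when 1 sample was left out (6.68% to 20.2%).

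With the replicate block, which pairs same-numbered samples, 229 genes passed the adjusted and 3136 the unadjusted threshold, 0 and 12 members did, and 4 translation partners passed the unadjusted one. It also raised the calls among cytosolic ribosomal protein genes (35 to 78 unadjusted), oxidative phosphorylation genes (10 to 23), mitochondrial messenger RNAs (0 to 7), and epithelial and immune markers (1 to 3 each). Of 29 members named with values, 21 kept their direction under every alternative in which they were tested, and 14 passed the adjusted threshold with replicates 1 and 2 only, where 44.2% of all genes tested did, 1 of them (Mrpl12) also with library set as a term. Of the 29, 7 had no value with a mean of at least 5, among them Mrpl16, Mrpl53, Mrps11 and Mrps16. Of the 29, 8 turned. With replicates 1 and 2 only, the log2 difference became 0.21 in Mrpl38, 0.70 in Mrpl46, -0.013 in Mrps12, 0.29 in Mrps18c and 0.72 in Mrps33, after quantile normalization 0.25 in Mrpl46 and 0.054 in Mrps33, and with a pseudocount of 0.1 0.026 in Mrps33. When 1 sample was left out it ranged from -0.36 to 1.04 in Mrpl10, -0.69 to 0.23 in Mrpl24, -0.41 to 0.21 in Mrpl38, -0.29 to 0.42 in Mrpl46, -0.0074 to 0.11 in Mrps12, -0.0028 to 1.23 in Mrps18a, -0.94 to 0.78 in Mrps18c and -0.89 to 1.00 in Mrps33. The cause was not tested. No read in MSC replicate 3 limits a value only to 3 reads.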
